A study of Arabidopsis thaliana with 3 samples.

Results

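The genes described here are the members of a pair of Arabidopsis thaliana enzyme families, the beta-glucosidases (BGLU) and the serine carboxypeptidase-like proteins (SCPL), at the base of the inflorescence stem. A gene was taken as a member if the symbol listed for its spot begins with BGLU or SCPL and a number. This gave 38 of the 9253 genes with a value, 16 BGLU and 22 SCPL genes, each with 1 spot. The current gene table names 47 BGLU and 51 SCPL protein-coding genes. Of the rest, BGLU23 and BGLU20 were measured under the symbols PYK10 and ATA27, fall outside the rule and are given beside their relatives. The others were not analysed here. A gene is called measured here if it is the 1 gene listed for a spot. No gene is listed for 12861 of the 22236 spots, so genes not called measured may still be on the array.

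Stem RNA of nst1-1 nst3-1 double mutants, which carry T-DNA insertions in both genes, was compared with that of wild type on 3 two-colour arrays, 1 for each of the mutant samples numbered 1, 2 and 3 in the labels and called lines here. NST1 and NST3 encode NAC transcription factors that switch on secondary wall formation in fibres, and per the labels the mutant makes no secondary xylem in stem or hypocotyl. RNA came from the lowest 4 cm of stems between 12 and 17 cm tall, from untreated plants grown with 8 h light and 16 h dark. The labels do not say whether the lines are separate insertions, whether plants were pooled, or whether 1 wild-type extract served every array, so p-values measure the spread between these samples, which may be technical. Mutant RNA was labelled with Cy5 for lines 1 and 3 and with Cy3 for line 2. All values are log2 ratios of mutant over wild type, and they rest on reading the deposited numbers as log10 of Cy5 over Cy3. The other reading of the dyes would turn every direction given here. NST1 and NST3 themselves were not analysed here, and ratios give no expression level, so neither the genotypes nor the tissue were checked against their defining genes.

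Beta-glucosidases of the BGLU family cut glucose from small plant compounds that are stored as glucosides. Their substrates include monolignol glucosides, coumarin glucosides such as scopolin, glucosinolates, flavonol glycosides and the glucose ester of abscisic acid, so that single members act in lignin supply, defence or hormone release. SCPL proteins share the fold of serine carboxypeptidases, which trim proteins from the carboxyl end. Some members have become acyltransferases that use glucose esters such as sinapoylglucose as donors. BGLU45 and BGLU46 are known for acting on monolignol glucosides in lignifying stems.

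No member of either family passed the test between mutant and wild type. At a limma adjusted p under 0.05 (Benjamini-Hochberg, over all genes), 0 of 16 BGLU and 0 of 22 SCPL genes were called, against 3.39% of all 9253 genes (2.6% lower and 0.789% higher). At an unadjusted p under 0.05, 3 BGLU genes were lower and 0 higher, and 4 SCPL genes were lower and 3 higher, where 11.9% and 13.9% of all genes were lower and higher. The result depended on line 1: without it, limma called 2 BGLU genes higher and 1 lower, and 4 SCPL genes higher and 2 lower, in a fit that called 1157 genes in all against 314 with every array. Without line 2 or without line 3, limma called 0 of all genes, with 1373 and 1430 at an unadjusted p under 0.05, of which 5 and 4 were members. In bulk stem RNA, fewer cells of a type and less RNA per cell cannot be told apart.

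The BGLU family as a whole was centred close to equal levels in mutant and wild type. Its median log2 ratio was -0.07, against 0.013 over all genes, and its members ranged from -0.95 to 0.60. The mean lay within 0.5 of 0 for 13 of the 16, or 81.2%, against 84.1% of all genes. For 11 of the 16 the 95% interval of the limma fit lay inside a 2-fold change in either direction (68.8%, against 85.6% of all genes). The same sign on all 3 arrays was seen for 4 BGLU genes lower and 1 higher, where 23.9% of all genes were lower and 26.2% higher on every array.

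The lowest BGLU ratios belonged to BGLU46 (AT1G61820) and BGLU45 (AT1G61810), the monolignol glucosidases. BGLU46 measured -1.43, -0.83 and -0.60 in lines 1, 2 and 3. It was below 0 in every line and at least 2-fold lower only in line 1. Its mean was -0.95 ± 0.42 (SD, n = 3 lines), a ratio of 0.516, with a limma adjusted p of 0.0759 and a 95% interval of -1.47 to -0.44. It alone of the BGLU genes was 1.5-fold or more below wild type in every line, and 0 were as much higher, where 3.2% of all genes were lower and 1.12% higher. A 2-fold difference on every array was seen for 0 members of either family, against 1.44% of all genes lower and 0.173% higher. With the arrays scaled to equal spread BGLU46 passed, at -0.93 with a limma adjusted p of 0.0495. Without line 1 it also passed, at -0.72 with a limma adjusted p of 0.0413. Those fits called 524 and 1157 of all genes, against 314 in the main fit. It did not pass with every spot in the fit, without line 2 or without line 3 (limma adjusted p = 0.132, 0.314 and 0.208). With a dye term its mean was -0.92, and it was not called.

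BGLU45 lies next to BGLU46 in the gene table and had a similar value in lines 1 and 2. It measured -1.44, -0.89 and -0.07, so that line 3 was close to the wild type. The mean of -0.80 ± 0.68 (SD, n = 3 lines) had a limma adjusted p of 0.191, and a 95% interval of -1.59 to -0.01. Without line 1 the mean was -0.48 (limma adjusted p = 0.258), and without line 3 it was -1.16 (0.192). BGLU47 (AT4G21760), the third member of the same sequence group, was not on one side of 0. It measured -0.87 in line 1, and 0.34 and 0.79 in lines 2 and 3, and its mean was 0.09 ± 0.86.

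**Figure D1:**
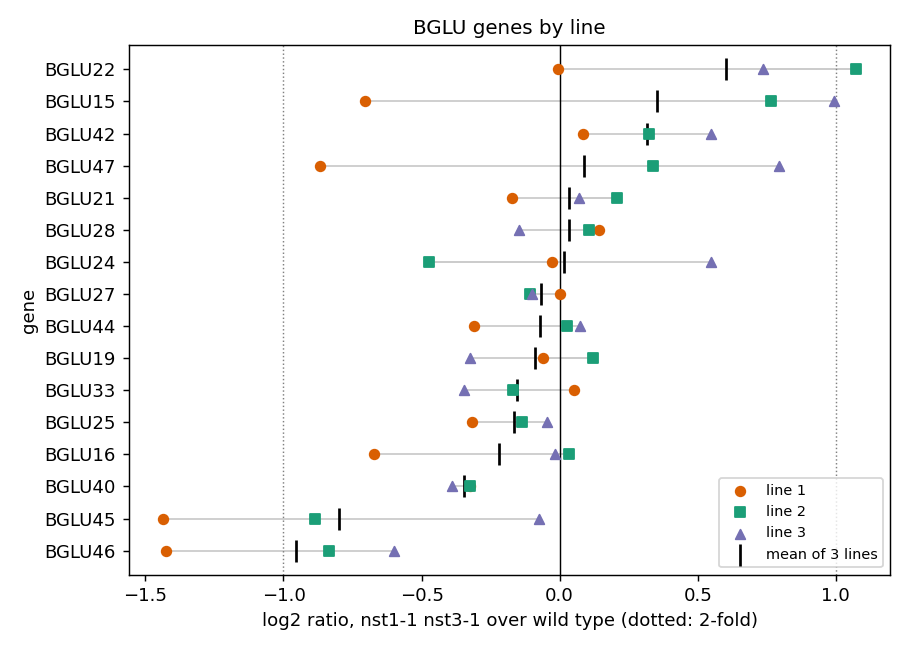
Log2 ratio of nst1-1 nst3-1 over wild type on the horizontal axis for each of the 16 BGLU genes, with circles, squares and triangles for lines 1, 2 and 3 and a black bar at their mean; dotted lines mark 2-fold. BGLU46 and BGLU45 lie lowest, with means of -0.95 and -0.80, and the circle of line 1 is the lowest point for 10 of the 16 genes.

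Genes of the BGLU group with signals for retention in the endoplasmic reticulum, several of which fill the ER bodies used in defence, were not called. Of the 8 genes listed for this group and its relatives, 7 were measured, BGLU19, BGLU21, BGLU22, BGLU24 and BGLU25 as members and PYK10 and ATA27 under their own symbols, and the median of the 7 was 0.02. BGLU21 and BGLU22 are adjacent genes whose enzymes cut scopolin. BGLU22 (AT1G66280) had the highest mean of the family, 0.60 ± 0.55 (SD, n = 3 lines; limma adjusted p = 0.215), with -0.01, 1.07 and 0.74 in lines 1, 2 and 3. Line 1 was level with wild type and the others were higher, and without line 1 limma called it, at 0.91 with an adjusted p of 0.0393. BGLU21 (AT1G66270) had -0.17, 0.21 and 0.07, with a mean of 0.04 ± 0.19.

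The other genes of that group were not called either. BGLU25 (AT3G03640) measured -0.32, -0.14 and -0.04, below 0 in every line, with a mean of -0.17 ± 0.14. BGLU19 (AT3G21370) was at -0.09 ± 0.22. BGLU24 (AT5G28510) averaged 0.02 ± 0.51 from lines that disagreed, with -0.03, -0.47 and 0.55. Their limma adjusted p-values were 0.346, 0.679 and 0.972. PYK10 (AT3G09260), the main protein of ER bodies, was not even across lines, with 1.02, -0.40 and 0.37 and a mean of 0.33 ± 0.71 (SD, n = 3 lines; limma adjusted p = 0.55). It was high in line 1, unlike BGLU21 and BGLU22. ATA27 (AT1G75940) was at -0.09 ± 0.17.

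Among BGLU genes with other substrates, BGLU15 (AT2G44450), whose enzyme acts on flavonol glycosides, had the widest spread of the family. It measured -0.70 in line 1 and 0.76 and 0.99 in lines 2 and 3, with a mean of 0.35 ± 0.92 (SD, n = 3 lines; limma adjusted p = 0.617). The sign of line 1 was thus opposite to the others, and without that line limma called it at 0.88 (adjusted p = 0.0345). BGLU28 (AT2G44460), which is induced by sulfur shortage and breaks down glucosinolates, is its neighbour and was at 0.03 ± 0.16. BGLU33 (AT2G32860), a vacuolar enzyme that releases abscisic acid from its glucose ester, was at -0.15 ± 0.20, with 0.05, -0.17 and -0.35. BGLU42 (AT5G36890), which frees scopoletin from its glucoside in roots, was the 1 BGLU gene above 0 in every line, with 0.08, 0.32 and 0.55 and a mean of 0.32 ± 0.23 (limma adjusted p = 0.205).

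BGLU40 (AT1G26560) gave the closest agreement between lines of any BGLU gene. It measured -0.33, -0.32 and -0.39, a mean of -0.35 ± 0.04 (SD, n = 3 lines), with a 95% interval of -0.55 to -0.14. Small as the spread was, the limma adjusted p was 0.0889. BGLU44 (AT3G18080), a beta-mannosidase acting on mannan fragments, was at -0.07 ± 0.21. The adjacent genes BGLU16 (AT3G60130) and BGLU27 (AT3G60120) were at -0.22 ± 0.39 and -0.07 ± 0.06, and BGLU16 was below the wild type mainly in line 1, at -0.67.

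The SCPL family too was centred near equal levels, with 1 gene, SCPL31, well below the others. Its median was -0.01, against 0.013 over all genes, and members ranged from -1.92 to 0.51. Of the 22 genes, 16 had a mean within 0.5 of 0 (72.7%, against 84.1% of all genes), and for 16 the 95% interval lay inside a 2-fold change (72.7%, against 85.6%). On every array, 6 SCPL genes were below 0 and 6 above it, where 23.9% and 26.2% of all genes were. The listed acyltransferases (SCPL8, SCPL9, SCPL10, SCPL13, SCPL17 and SCPL19), which place sinapoyl and benzoyl groups, were not among the members.

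SCPL31 (AT1G11080) had the lowest ratio of either family. It measured -0.88, -2.54 and -2.33 in lines 1, 2 and 3, below 0 in every line and furthest from it in lines 2 and 3. Its mean of -1.92 ± 0.90 (SD, n = 3 lines) is 3.78-fold lower and ranked 52 from the lowest of the 9253 genes. The limma adjusted p was 0.0752, with a 95% interval of -2.95 to -0.89. Without line 1 limma called it, at -2.44 with an adjusted p of 0.0178, and with a dye term the mean was -2.08 (limma adjusted p = 0.211). It was the 1 SCPL gene at least 1.5-fold lower in every line, against 3.2% of all genes.

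SCPL48 (AT3G45010) and SCPL47 (AT5G22980) came next, and both had their lowest ratio in line 1. SCPL48 measured -1.65, -0.51 and -0.63, with a mean of -0.93 ± 0.63 (SD, n = 3 lines; limma adjusted p = 0.135). SCPL47 measured -1.72, -0.33 and -0.60, with a mean of -0.89 ± 0.74 (limma adjusted p = 0.184). Both were below 0 in every line, and line 1 lay more than 1 log2 unit below the others. Without line 1 limma called SCPL48 at -0.57 (adjusted p = 0.0423) and did not call SCPL47 at -0.47 (adjusted p = 0.0812). SCPL35 (AT5G08260) was also lowest in line 1, with -1.24 in line 1 against -0.27 and -0.23 in lines 2 and 3, and a mean of -0.58 ± 0.57. SCPL49 (AT3G10410) was at -0.04 ± 0.16.

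**Figure D2:**
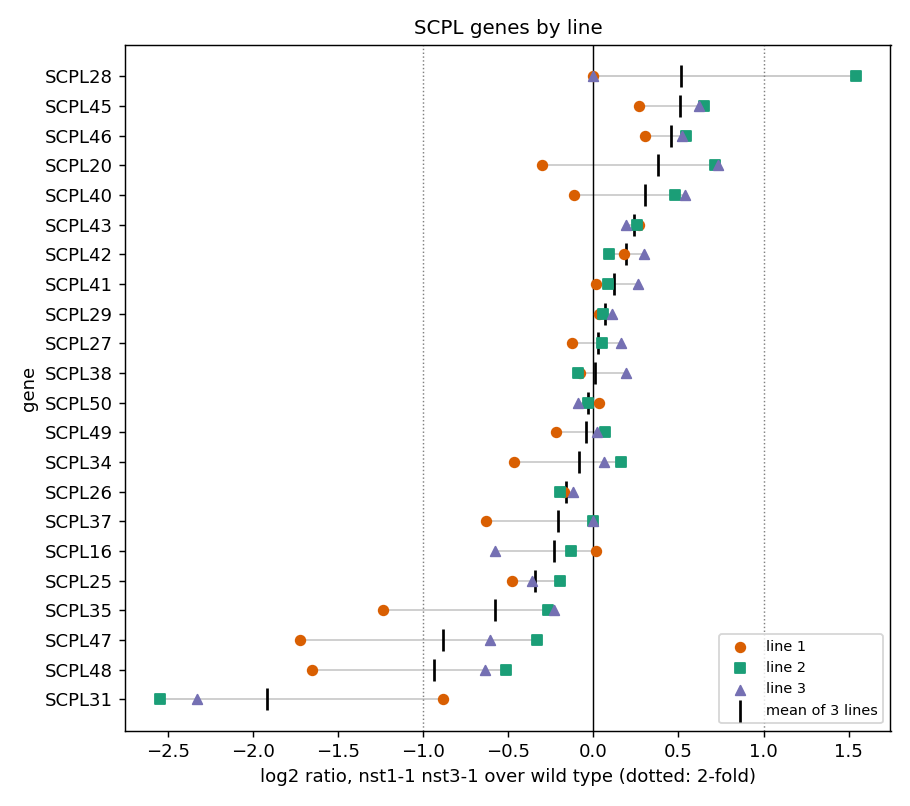
Log2 ratio of nst1-1 nst3-1 over wild type for each of the 22 SCPL genes, drawn as for the BGLU genes. SCPL31 lies apart at a mean of -1.92 with lines 2 and 3 beyond -2, while SCPL48 and SCPL47 are lowest in line 1 and SCPL45 and SCPL46 lie above 0 in every line.

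On the high side, SCPL45 (AT1G28110) and SCPL46 (AT2G33530) had the lowest adjusted p-values. SCPL45 measured 0.27, 0.65 and 0.62, with a mean of 0.51 ± 0.21 (SD, n = 3 lines; limma adjusted p = 0.0904). SCPL46 measured 0.30, 0.54 and 0.52, with a mean of 0.45 ± 0.13 (limma adjusted p = 0.0784). Both were above 0 in every line and nearly equal in lines 2 and 3, and both passed without line 1, at 0.63 and 0.53 (limma adjusted p = 0.0363 and 0.0421). SCPL43 (AT2G12480) was smaller and tighter, at 0.24 ± 0.04 with a limma adjusted p of 0.159. SCPL42 (AT5G42240), SCPL41 (AT5G42230) and SCPL29 (AT4G30810), the other genes above 0 in every line, were at 0.19 ± 0.10, 0.12 ± 0.13 and 0.07 ± 0.04.

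SCPL20 (AT4G12910) and SCPL40 (AT3G63470) were below 0 in line 1 and above it in the other lines. SCPL20 measured -0.30, 0.71 and 0.73, and SCPL40 measured -0.11, 0.48 and 0.54. Their means were 0.38 ± 0.59 and 0.30 ± 0.36 (SD, n = 3 lines; limma adjusted p = 0.413 and 0.332), and without line 1 limma called them at 0.72 and 0.51 (adjusted p = 0.0319 and 0.0452).

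BRS1 (SCPL24) is a secreted carboxypeptidase that strengthens brassinosteroid signalling when overproduced. Of the 8 genes listed as BRS1 and its homologues, 5 were measured and none was called. BRS1 itself was not analysed here. SCPL25 (AT3G02110) was below 0 in every line, with -0.48, -0.20 and -0.36 and a mean of -0.34 ± 0.14 (SD, n = 3 lines; limma adjusted p = 0.125). SCPL26 (AT2G35780) was at -0.16 ± 0.04, also below 0 in every line, and SCPL27 (AT3G07990) at 0.03 ± 0.14. SCPL28 (AT2G35770), the neighbour of SCPL26, had deposited values of exactly 0 on the arrays of lines 1 and 3 and 1.54 on that of line 2, so its mean of 0.51 ± 0.89 rests on 1 array. SCPL37 (AT3G52010) likewise had exactly 0 in lines 2 and 3, and -0.63 in line 1. What an exact 0 stands for was not stated, and with these values left out neither gene could be fitted.

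The remaining SCPL genes were not called and differed in how closely their lines agreed. SCPL16 (AT3G12220) had a mean of -0.23 ± 0.31 (SD, n = 3 lines), with -0.58 in line 3 and a 95% interval of -0.63 to 0.17. SCPL34 (AT5G23210) had a mean of -0.08 ± 0.34, with -0.47 in line 1 and a 95% interval of -0.51 to 0.35. SCPL50 (AT1G15000) and SCPL38 (AT2G05850) were at -0.03 ± 0.06 and 0.01 ± 0.16. The 95% interval of SCPL50 ran from -0.24 to 0.19 and that of SCPL38 from -0.26 to 0.28, so a 2-fold change lay outside both.

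Line 1 stood apart from the other lines for both families. It gave the lowest of the 3 values for 10 of 16 BGLU genes (62.5%) and 14 of 22 SCPL genes (63.6%), against 36.3% of all genes. It gave the highest value for 3 and 4 of them, against 43.3% of all genes. The median of the BGLU genes was -0.24 in line 1, 0.03 in line 2 and -0.03 in line 3, and that of the SCPL genes was -0.12, 0.05 and 0.04. As a description across genes, which are not independent replicates and share each array, the Pearson correlation between lines 2 and 3 was 0.679 over the 16 BGLU and 0.862 over the 22 SCPL genes. Line 1 correlated with lines 2 and 3 at 0.455 and 0.096 over the BGLU genes and at 0.487 and 0.557 over the SCPL genes. Over all genes the values were 0.784 for lines 2 and 3, and 0.488 and 0.477 for line 1 with lines 2 and 3.

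**Figure D3:**
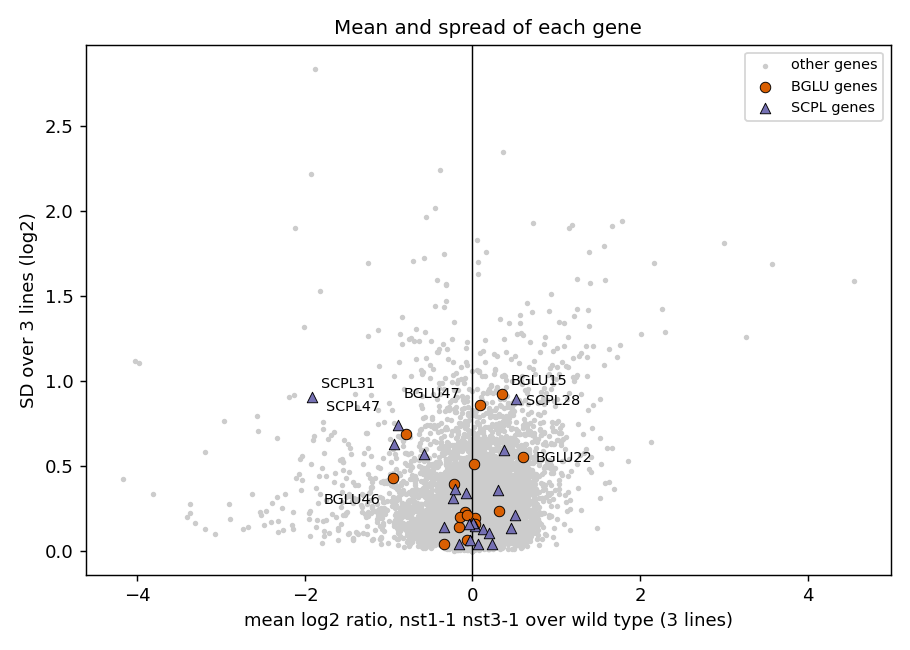
Mean log2 ratio (horizontal) against its SD over the 3 lines (vertical), 1 point per gene, with BGLU genes as circles, SCPL genes as triangles and all other genes in grey. SCPL31 combines a mean of -1.92 with an SD of 0.90, and most of the other members lie in the dense part of the cloud near 0.

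Neighbouring members were set side by side by line. Of 6 pairs of members of a family with at most 2 genes between them, 5 were directly adjacent, and probes of close copies may share signal, which was not tested. The difference between BGLU21 and BGLU22 was -0.17, -0.87 and -0.67 by line, with BGLU21 below BGLU22 in every line. BGLU45 minus BGLU46 was -0.01, -0.05 and 0.53, so the pair parted in line 3. SCPL41 and SCPL42 differed by -0.07 ± 0.08 (SD, n = 3 lines). BGLU15 and BGLU28 differed by -0.85 in line 1 and by 0.66 and 1.14 in lines 2 and 3, and BGLU16 and BGLU27 by -0.67, 0.14 and 0.08. SCPL26 minus SCPL28 was -0.17, -1.74 and -0.12, where SCPL28 rests on 1 array. In exact two-sided sign-flip tests over the 3 lines no pair had a p under 0.25, or under 0.5 after adjustment over the 6 pairs. As 0.25 is the smallest p that 3 lines allow, the test could show no pair to differ, and none was shown to be alike.

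Among listed genes that act around the monolignol glucosidases, 1 was called in each of 3 lists, where 3.39% of all genes were. Of 11 listed genes for glucosylation of phenylpropanoids and sinapate, 7 were measured, of which 1 fell, 0 rose and 6 were not called, with a median of -0.07. UGT72B1, a glucosyltransferase of monolignols, fell, with -1.26, -1.17 and -0.89 in lines 1, 2 and 3 and a mean of -1.11 ± 0.19 (SD, n = 3 lines; limma adjusted p = 0.0359). This ratio is of the size of those of BGLU46 and BGLU45, with a smaller spread between lines. UGT72E2, which makes coniferyl and sinapyl alcohol glucosides, measured -0.13, 1.78 and 1.71 and was not called (limma adjusted p = 0.221). UGT72E1, from the same group of enzymes, was at 0.69 ± 0.55, and UGT84A3, which makes hydroxycinnamate glucose esters, at -0.43 ± 0.13 (limma adjusted p = 0.0851).

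**Figure D4:**
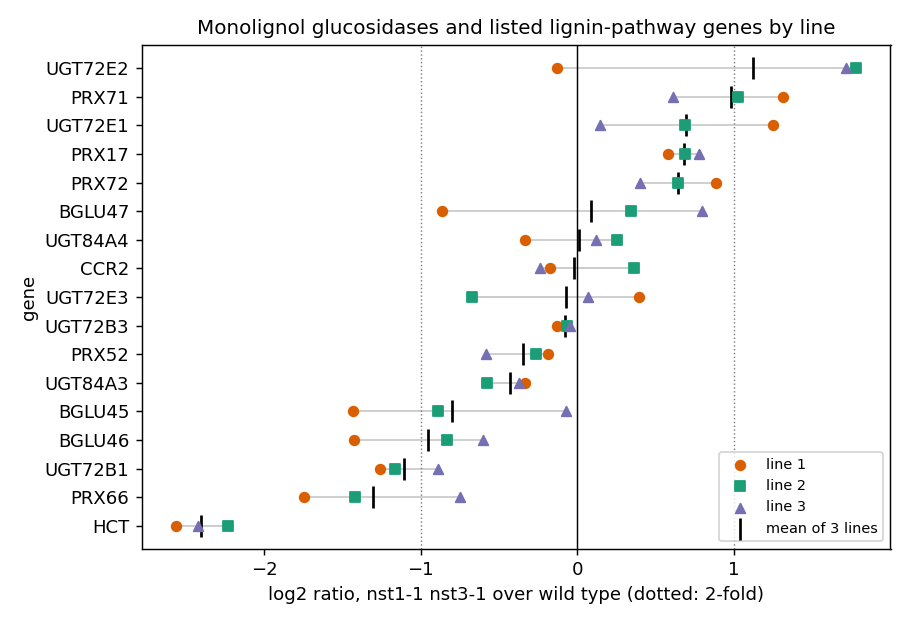
Log2 ratio of nst1-1 nst3-1 over wild type by line for BGLU45, BGLU46 and BGLU47 and for the measured genes of the lists on monolignol synthesis, phenylpropanoid glucosylation and lignin laccases and peroxidases. HCT lies lowest at a mean of -2.40, and UGT72B1, BGLU46 and BGLU45 lie between -1.11 and -0.80.

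On the same side of the pathway, 2 of 22 list entries for monolignol synthesis were measured, and 1 fell. This was HCT, at -2.40 ± 0.17 (SD, n = 3 lines, limma adjusted p = 0.00917), while CCR2 was at -0.02 ± 0.33. The entry CCR1 was matched to AT1G77300, which is not the cinnamoyl-CoA reductase locus, so that reductase gene was not looked up. Of 15 laccases and peroxidases of lignin polymerisation 5 were measured, and 1 rose, PRX17, at 0.68 ± 0.10 (limma adjusted p = 0.0458). The others were peroxidase genes that were not called, PRX66 at -1.31 ± 0.51 and PRX71 at 0.98 ± 0.35 (limma adjusted p = 0.0627 and 0.0613), PRX72 at 0.64 ± 0.24 and PRX52 at -0.35 ± 0.21. The 3 measured genes of 22 on the list of xylem and secondary walls all fell, where 2.6% of all genes were called lower. They were IRX15 at -2.14 ± 0.23, IRX15-L at -1.43 ± 0.07 and IRX10-L at -0.60 ± 0.06. The rest of that list, IRX1, IRX3, IRX5 and MYB46 among them, was not analysed here, so these values do not speak for the list as a whole. Of 12 green cortex genes 4 were measured, with a median of -0.81, and all 4 means were below 0. LHCB4.3 fell, at -0.75 ± 0.16 (limma adjusted p = 0.0483), while those without a call were RCA at -1.79 ± 0.72, LHCB4.1 at -0.86 ± 0.44 and LHCB4.2 at -0.63 ± 0.63. The phloem and epidermis lists had 2 of 8 and 1 of 9 measured, none called. These lists give no tissue share, and their part in the ratios of the BGLU and SCPL genes was not tested.

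Around the other beta-glucosidases, the partners of the ER body and of myrosinases had 6 of 20 list entries measured and none called, with a median of 0.01. The entries PBP1 and JAL30, not analysed here, are the same gene. NAI1 and NAI2, which are needed to form ER bodies, were at -0.07 ± 0.12 and 0.02 ± 0.10, while the jacalin-related lectin gene JAL23 was at 1.33 ± 0.58 (SD, n = 3 lines; limma adjusted p = 0.0696). Of 9 coumarin genes 4 were measured, and F6'H2, a feruloyl-CoA hydroxylase, fell, at -1.74 ± 0.30 (limma adjusted p = 0.0275); F6'H1 was at 0.07 ± 0.33. Of 23 glucosinolate genes 3 were measured, and UGT74C1, a glucosyltransferase gene, fell, at -0.60 ± 0.02 (limma adjusted p = 0.0459). The others were not called, BCAT4 with -0.44, 3.16 and 2.63 in lines 1, 2 and 3 (limma adjusted p = 0.255) and UGT74B1 at 0.10 ± 0.28, and the median of the list was 0.10. The 3 measured genes of abscisic acid conjugation, of 16 listed, were not called. Nor were the 3 of 13 list entries for dark and sugar starvation. The 1 of 14 for sulfur deficiency, SDI2, was not called either, with 3.39, 1.00 and 0.37 in lines 1, 2 and 3. Its mean was 1.59 ± 1.59 (SD, n = 3 lines; limma adjusted p = 0.23). In the starvation list DIN1 and SEN1 are the same gene, as are DIN6 and ASN1. No gene of the brassinosteroid perception list was analysed here.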

How the data were processed

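The authors deposited 1 log ratio per spot and array, read here as log10 of Cy5 over Cy3 because every deposited column ends at exactly -2; the sources used here give neither base and direction nor scanner, background correction and dye normalization. The column of line 2 was turned by its dye label, and values were converted to log2. Spots with 1 listed gene (9335 of 22236) were named through the platform annotation, updated through Entrez identifiers against assembly TAIR10.1 (9317 matched), and averaged by gene. limma 3.58.1 (R 4.3.3; lmFit, eBayes) tested each gene's 3 ratios against 0, two-sided, with Benjamini-Hochberg adjustment over all 9253 genes; wild type has no separate spread. Depth does not apply; 3 arrays limit the precision, and spot intensities were not used here. The test was tried on simulated data. The naming rule took every member and allowed any measured gene of 21 pathway and tissue lists; members and lists were chosen with earlier results of these data known. After matching, 18 list symbols were given locus codes by hand and 1 ambiguous symbol was replaced. Protein and promoter sequences were not used here.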

Additional observations from a re-analysis of the deposited data

How the results depend on the processing

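Of 13 alternatives, 10 had the family medians computed again. Single spots and every spot in the fit could not move them, as each member has 1 spot. The BGLU median (-0.07) ran from -0.10 to -0.01 and the SCPL median (-0.01) from -0.05 to 0.07, above 0 only without line 1. No member called under an alternative had the opposite sign there. Causes of what follows were not tested. Main counts were 0 called higher and 0 lower in each family. Scaling the arrays to equal spread gave 1 BGLU gene lower (BGLU46). A threshold of 0.1 gave 2 BGLU genes lower (BGLU40, BGLU46), and 2 SCPL genes higher (SCPL45, SCPL46) and 1 lower (SCPL31), 5 of 38 members against 1178 of 9253 genes. Leaving out 1 line gave 0 to 2 BGLU genes higher and 0 to 1 lower, and 0 to 4 SCPL genes higher and 0 to 2 lower; every such call came without line 1, a fit on 2 arrays. All other alternatives called 0 members. They were centring, single spots, every spot in the fit, exact zeros left out, a dye term, a robust prior, the ordinary one-sample test and log2 as the base. Log2 as the base scales every ratio alike, so it could not change a call. Single spots and every spot in the fit left the ratios of each member as they were. Over all genes, 314 calls became 524 with scaling, 69 with every spot in the fit and 0 with a dye term (1 residual degree of freedom; 1592 at an unadjusted p under 0.05 by limma, 7 of them members) and 1 with the ordinary test. Read as log2, the ratios shrink, so that BGLU46 would be at -0.29 and SCPL31 at -0.58. Each ratio already sets mutant against wild type on 1 array, so no separate paired analysis was run. A filter on dim spots was not run, as intensities were not used here.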
